A study of Homo sapiens with 4 samples.

Results

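Genes of the T cell and natural killer (NK) cell lineages were examined in a leukemia line of another lymphoid lineage, to see which of their loci are closed or open there. The genes were 36, chosen by name for their roles in T and NK cells, and each locus was the gene body with 5 kb on either side in hg19 (GRCh37). Of the 139872 consensus peaks of the ATAC-seq table, 160 overlapped these loci, and no peak belonged to more than 1 of the 36 genes. ATAC-seq counts the places where a transposase could insert sequencing adaptors, so a consensus peak marks a stretch of DNA that was open in these cells. The cells were SEM, an established B cell precursor leukemia line with an MLL rearrangement, and all of them expressed dCas9-KRAB-BSD, a Cas9 without nuclease activity fused to the KRAB repressor domain. The tested libraries, 2 in number, carried the guide sgFLT3-DE-1, which targets a distal enhancer of the kinase gene FLT3, and the 2 control libraries carried the non-target guide sgNT. SEM is 1 line, so the loci are described in a single leukemia and not in normal B cell precursors.

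T cells recognise antigen through a receptor whose signal passes through the CD3 chains and CD247 to the kinases LCK, FYN and ZAP70 and the adaptors LAT and LCP2. T lineage identity is set up in the thymus under Notch signals by factors such as TCF7, GATA3 and BCL11B, while TBX21 and EOMES act in cytotoxic T cells and NK cells. Regulatory DNA of a gene that is in use is generally accessible, but a start rich in CpG dinucleotides is often open whether or not the gene is expressed, and no RNA was used here.

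Total counts in peaks were 3670758 and 4831164 in sgFLT3-DE-1 cells, against 3321429 and 2683477 in sgNT cells, and 82558 peaks had enough counts to be tested between the guides, 106 of them in the T and NK loci. The line was checked against 19 genes of B cell precursors. A peak with enough counts to be tested lay within 1 kb of a transcription start (a start peak) at 15 of them, among them PAX5, EBF1, RAG1 and VPREB1. CD79A and BLNK had no peak in the locus, MME had peaks only away from its start, and the start peak of CD79B was too thin to test. The table held no peak at all across some long stretches. Each of 49 such stretches, 59.6 Mb in all, spanned at least 5 CpG-rich coding starts without a peak, although 78.0% of such starts had one genome-wide. A gene inside such a stretch was therefore not read as closed, and FOXP3, most of CD4 and the far edge of the CD3G locus lay in them.

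Open chromatin was present in 32 of the 36 loci. A testable start peak was found at 19 of the 36 genes (52.8%), and 3 more (CD3E, IL2RB and PRF1) had a start peak too thin to test. Another 10 had peaks only away from their starts, and 4 (CD7, FOXP3, GZMB and NCAM1) had no peak in the locus. Over all 20162 protein-coding genes, 58.8% had a testable start peak and 17.6% had no peak, so the shares among the T and NK genes, 52.8% and 11.1%, were near those of the whole annotation. In these bulk libraries, more cells with an open site and a wider opening per cell cannot be told apart.

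By role, the genes that signal below the receptor and the transcription factors held 11 of the 19 testable start peaks. All 5 signalling genes (LCK, FYN, ZAP70, LAT and LCP2) and 6 of 7 transcription factors (all but FOXP3) had a testable start peak. The starts of all 7 transcription factors were CpG-rich, as compared below. Of all coding genes with such starts, 75.2% had a testable start peak. The genes whose products T and NK cells display or secrete held the other 8. A testable start peak was present at 2 of 5 receptor chains, 2 of 7 coreceptors and adhesion or costimulation receptors, 1 of 2 Notch receptors, 0 of 2 interleukin-2 receptor chains, 1 of 6 cytotoxic and NK genes and 2 of 2 inhibitory receptors. For comparison, the share was 21 of 50 for a further list of T and NK genes, 5 of 14 for myeloid genes, 0 of 10 for erythroid genes, 2 of 18 for genes of non-blood tissues and 12 of 14 for housekeeping genes. The housekeeping genes PGK1 and TUBB had no peak in the locus. Genes in peak-free stretches were not taken out of these lists, so a missing peak in them was not read as closed chromatin.

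**Figure D1:**
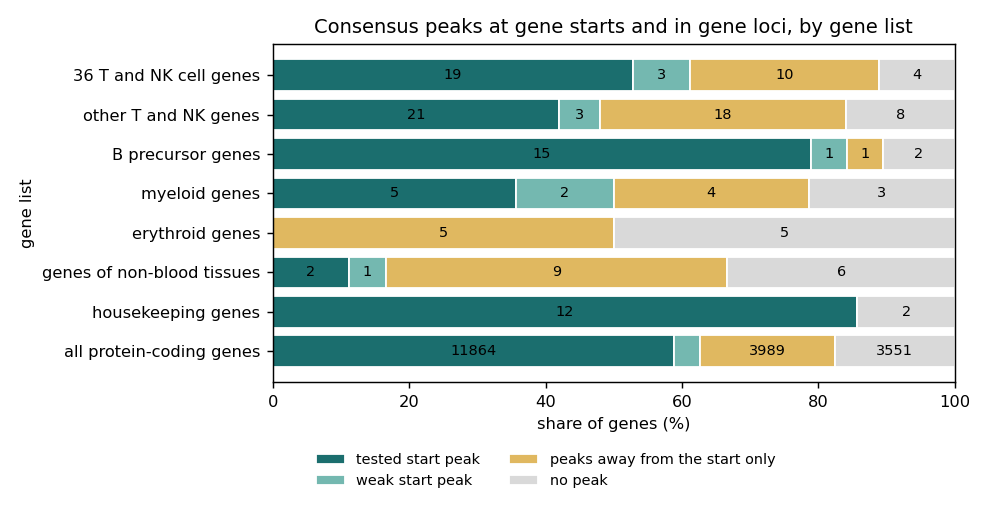
Share of genes (horizontal axis, %) by where their consensus peaks lie, for 7 gene lists and all protein-coding genes. Numbers in the bars are genes. The 36 T and NK cell genes split into 19 with a testable start peak, 3 with a thin one, 10 with peaks away from the start only and 4 with no peak, against 15, 1, 1 and 2 of the 19 B precursor genes.

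Start peaks are shown for FYN, GATA3, CD28 and TCF7, those of highest accessibility per kb with no other coding gene's start nearby, leaving TOX aside. The TCF7 peak is intronic, with its centre 1.40 kb from an internal start, and counts as a start peak because its edge lies within 1 kb. The stretch printed for TCF7 is the middle of that peak and does not hold the start itself. Each stretch was read from GRCh37 along the strand of its gene, 5′ to 3′, without any annotated exon. They are followed by peaks away from starts in the loci of CD2 and CD4, picked after their values were seen because they outrank the starts of the same genes. Capitals mark matches, on either strand, to CTTTGA (the core bound by TCF and LEF factors), AGGAAG (a core bound by ETS factors), the RUNX core TGTGGT, the GATA core AGATAA and the E-box of basic helix-loop-helix factors spelled CACCTG. A second E-box form, CAGCTG, the ETS letters CCGGAA and the HOX-type letters TTTATGG, and also TGATTTA, were searched and not found in these stretches.
FYN start, chr6:112194656-112194790, minus strand: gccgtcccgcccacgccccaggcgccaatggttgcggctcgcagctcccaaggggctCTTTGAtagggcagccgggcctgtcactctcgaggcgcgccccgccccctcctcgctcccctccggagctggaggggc
GATA3 start, chr10:8095448-8095566, plus strand: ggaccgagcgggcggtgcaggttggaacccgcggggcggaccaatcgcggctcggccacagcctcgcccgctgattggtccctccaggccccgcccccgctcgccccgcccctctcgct
CD28 start, chr2:204571141-204571197, plus strand: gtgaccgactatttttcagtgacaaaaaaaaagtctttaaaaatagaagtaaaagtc
TCF7 internal start, chr5:133460557-133460856, plus strand: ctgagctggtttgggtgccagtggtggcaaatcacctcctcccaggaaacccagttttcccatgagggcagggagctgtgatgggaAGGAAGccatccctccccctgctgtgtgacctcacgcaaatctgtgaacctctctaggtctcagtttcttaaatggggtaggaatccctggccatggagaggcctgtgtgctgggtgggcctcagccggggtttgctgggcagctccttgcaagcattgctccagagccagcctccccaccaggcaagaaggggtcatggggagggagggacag
CD2 beyond the end, chr1:117312338-117312637, plus strand: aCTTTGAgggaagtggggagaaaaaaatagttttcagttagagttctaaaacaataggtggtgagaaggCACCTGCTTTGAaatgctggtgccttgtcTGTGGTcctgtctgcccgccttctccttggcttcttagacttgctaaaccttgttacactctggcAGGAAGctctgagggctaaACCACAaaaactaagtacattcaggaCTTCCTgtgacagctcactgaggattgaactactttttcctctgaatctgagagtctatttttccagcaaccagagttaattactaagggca
CD4 intron, chr12:6901208-6901507, plus strand: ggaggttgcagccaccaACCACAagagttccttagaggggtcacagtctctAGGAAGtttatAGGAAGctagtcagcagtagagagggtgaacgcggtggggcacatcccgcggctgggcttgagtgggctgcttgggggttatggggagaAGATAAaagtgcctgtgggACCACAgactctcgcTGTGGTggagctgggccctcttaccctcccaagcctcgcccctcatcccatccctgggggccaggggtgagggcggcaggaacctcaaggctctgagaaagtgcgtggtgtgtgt
The stretch at FYN held 1 match, to CTTTGA, and the one at TCF7 held 1, to AGGAAG. Those at GATA3 and CD28, shortened to leave out annotated exons, held none of the letters searched. In the central 200 bp of the whole peak, exons included, GATA3 held CTTTGA, and CD28 held TGTGGT as well as the E-box letters CACCTG. The peak beyond CD2 held 2 matches to TGTGGT, 2 to CTTTGA, 2 to AGGAAG and 1 to CACCTG. The peak in the CD4 intron held 3 to TGTGGT, 2 to AGGAAG and 1 to AGATAA. Among all 15734 peaks of at least 300 bp away from coding starts, 47.8% held TGTGGT at least once in their central 300 bp, 13.9% at least 2 times and 2.74% at least 3 times. AGGAAG was there at least 2 times in 15.4% of them and CTTTGA in 3.53%, while 14.7% held AGATAA and 16.0% held CACCTG at least once. A match is a description of the letters and not a site of binding.

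Among the receptor chains, the CD3 genes had no start peak or a thin one, with open chromatin close by for CD3E and CD3D. CD3E, a signalling chain of the T cell receptor complex, had 3 and 5 counts at its start in sgFLT3-DE-1 cells, against 0 and 0 in sgNT cells, too few to compare, and its mean per kb exceeded that of 0.701% of all consensus peaks. A peak beyond the end of the same gene had 93 and 150 counts in sgFLT3-DE-1 cells, against 92 and 108 in sgNT cells. Its accessibility, as normalised CPM (peak counts divided by TMM-scaled library totals) per kb of peak, was 102 and 117 in sgFLT3-DE-1 cells, against 109 and 153 in sgNT cells, above 98.4% of all consensus peaks. All 4 libraries held this peak, so the strongest open site of CD3E lay at the opposite end of the gene from its start. CD3D, the neighbouring chain, had 1 peak, 0.109 kb beyond its end, with 37.2 and 43.2 CPM per kb in sgFLT3-DE-1 cells, against 30.5 and 32.6 in sgNT cells. The single peak of the CD3G locus was at the start of UBE4A, another coding gene, with 25.4 and 25.5 CPM per kb in sgFLT3-DE-1 cells, against 28.6 and 17.1 in sgNT cells. CD3G thus had no peak of its own.

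CD247 encodes the zeta chain that carries the receptor's activation motifs. The stronger of its start peaks lay at an internal start, 62.8 kb into the gene from the canonical one, and had 30.2 and 34.4 CPM per kb in sgFLT3-DE-1 cells, against 29.7 and 25.8 in sgNT cells. Its strongest peak was intronic, with 57.6 and 74.4 CPM per kb in sgFLT3-DE-1 cells, against 69.9 and 76.4 in sgNT cells. PTCRA, the invariant partner of the T cell receptor beta chain in thymocytes, had 14.3 and 25.6 CPM per kb at its start in sgFLT3-DE-1 cells, against 20.6 and 21.6 in sgNT cells. The PTCRA locus as a whole summed to 353.9 CPM per 100 kb, but without 3 peaks at the start of its neighbour CNPY3 the sum was 26.8.

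Of the coreceptors and surface receptors, CD28 and CD8A had a start peak and the other 5 had none. CD28, the main costimulatory receptor of T cells, had 91.1 and 86.2 CPM per kb at its start in sgFLT3-DE-1 cells, against 87.2 and 67.9 in sgNT cells. CD8A, a chain of the coreceptor of cytotoxic T cells, had 50.4 and 64.1 CPM per kb in sgFLT3-DE-1 cells, against 39.6 and 50.7 in sgNT cells, at a start 17.6 kb upstream of the canonical one. At the canonical start of CD8A there was no peak. Its partner CD8B, with 3 intronic peaks, reached 12.1 and 20.2 CPM per kb in sgFLT3-DE-1 cells, against 18.9 and 24.4 in sgNT cells at the strongest.

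CD4, the coreceptor of helper T cells, had 1 peak, in the intron 2.66 kb from its start (chr12:6901150-6901566). Counts there were 60 and 142 in sgFLT3-DE-1 cells, against 49 and 84 in sgNT cells, or 44.4 and 75.3 CPM per kb in sgFLT3-DE-1 cells, against 39.3 and 80.7 in sgNT cells. In both groups the library numbered 2 was the higher one, and the guides overlapped. In mouse, an early intron of Cd4 holds a silencer that RUNX proteins bind, and whether this peak lies at the human counterpart was not determined. From the end of this peak the table was empty for 343.6 kb, across 17 coding starts of which 13 were CpG-rich, so the rest of the CD4 locus was not read as closed.

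CD2, an adhesion receptor, had no start peak, but a peak 0.474 kb beyond its end (chr1:117312325-117312652) had 72.5 and 96.4 CPM per kb in sgFLT3-DE-1 cells, against 68.3 and 97.7 in sgNT cells, above 95.6% of all peaks. The flank beyond the human CD2 gene is known for a locus control region that drives T cell expression in transgenic mice, and whether the peak lies within it was not determined. CD5, an inhibitory scavenger-family receptor of T cells and some B cells, was strongest 1.93 kb beyond its end, with 26.3 and 52.0 CPM per kb in sgFLT3-DE-1 cells, against 22.9 and 39.3 in sgNT cells. CD7, an early marker of T and NK cells, had no peak in its locus, and the nearest peaks were 11.3 kb and 12.9 kb from the gene.

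FYN had the strongest start of the signalling genes. FYN encodes a Src-family kinase that is also expressed outside T cells, and its start peak (chr6:112194490-112195072) had 152 and 134 CPM per kb in sgFLT3-DE-1 cells, against 148 and 157 in sgNT cells, above 94.2% of the start peaks of all coding genes. A peak deep in an intron (chr6:112069574-112069889) had 161 and 146 CPM per kb in sgFLT3-DE-1 cells, against 148 and 144 in sgNT cells, the highest mean (150.0) of all 160 peaks. With 25 peaks in a gene of 213 kb, FYN and TOX together held 47 of the 160 (29.4%).

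The other signalling genes had lower start peaks. LCP2, the SLP-76 adaptor, had 21.4 and 60.1 CPM per kb at its start in sgFLT3-DE-1 cells, against 42.5 and 50.9 in sgNT cells, with the lowest and the highest value both from sgFLT3-DE-1. A peak over an exon of LCP2, 4.28 kb from that start, was stronger, with 114 and 128 CPM per kb in sgFLT3-DE-1 cells, against 114 and 103 in sgNT cells. LCK, the kinase tied to CD4 and CD8, had 16.9 and 30.2 CPM per kb at its start in sgFLT3-DE-1 cells, against 42.0 and 28.4 in sgNT cells. ZAP70, the kinase that docks on phosphorylated CD247, had 26.1 and 37.3 in sgFLT3-DE-1 cells, against 18.8 and 20.9 in sgNT cells. The adaptor LAT had 2 and 23 counts at its start peak in sgFLT3-DE-1 cells, against 20 and 11 in sgNT cells, which is 2.98 and 24.6 CPM per kb in sgFLT3-DE-1 cells, against 32.3 and 21.3 in sgNT cells. Of these genes, FYN stood above the median of all coding start peaks (45.8 CPM per kb) in every library, while LAT, LCK and ZAP70 were below it in every library.

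GATA3, TOX and TCF7 had the strongest starts among the transcription factors. GATA3, needed for early T cell commitment and for helper T cells of type 2, had 136 and 102 CPM per kb at its strongest start peak in sgFLT3-DE-1 cells, against 147 and 119 in sgNT cells (chr10:8095347-8095619). It had 5 start peaks in all, and an intronic peak with 79.2 and 60.8 CPM per kb in sgFLT3-DE-1 cells, against 80.8 and 62.5 in sgNT cells. TOX, an HMG-box factor of developing and exhausted T cells, had 148 and 108 CPM per kb in sgFLT3-DE-1 cells, against 131 and 111 in sgNT cells. TCF7, which encodes TCF1, a factor that responds to Notch in early thymocytes, had its largest peak in an intron near an internal start, 1017 bp long, with 49.5 and 62.8 CPM per kb in sgFLT3-DE-1 cells, against 48.6 and 66.1 in sgNT cells. At the canonical start of TCF7 the counts were 39 and 65 in sgFLT3-DE-1 cells, against 38 and 35 in sgNT cells. Per kb this was 33.2 and 39.6 CPM in sgFLT3-DE-1 cells, against 35.0 and 38.6 in sgNT cells. By their strongest start peaks, GATA3, TOX and TCF7 were above 45.8 CPM per kb in all 4 libraries. The canonical start of TCF7 was below it in all 4.

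BCL11B, which holds T cells to their lineage, had 48.2 and 33.3 CPM per kb at its start in sgFLT3-DE-1 cells, against 26.5 and 39.2 in sgNT cells, and its locus of 5 peaks was sparse, at 18.8 to 22.7 CPM per 100 kb in sgFLT3-DE-1 cells, against 15.1 to 19.5 in sgNT cells. TBX21, encoding T-bet, had 7.63 and 25.5 CPM per kb at its start in sgFLT3-DE-1 cells, against 12.4 and 37.9 in sgNT cells, higher in the libraries numbered 2 of both guides. EOMES, a T-box factor of NK and memory T cells, had 22.8 and 19.6 at its start in sgFLT3-DE-1 cells, against 13.4 and 20.2 in sgNT cells. The strongest EOMES peak lay 3.57 kb beyond the gene, with 95.8 and 91.2 CPM per kb in sgFLT3-DE-1 cells, against 104 and 88.2 in sgNT cells. FOXP3, the factor of regulatory T cells, lay in a stretch of 805.5 kb without a peak that spanned 22 coding starts, 7 of them CpG-rich, so its state could not be read.

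**Figure D2:**
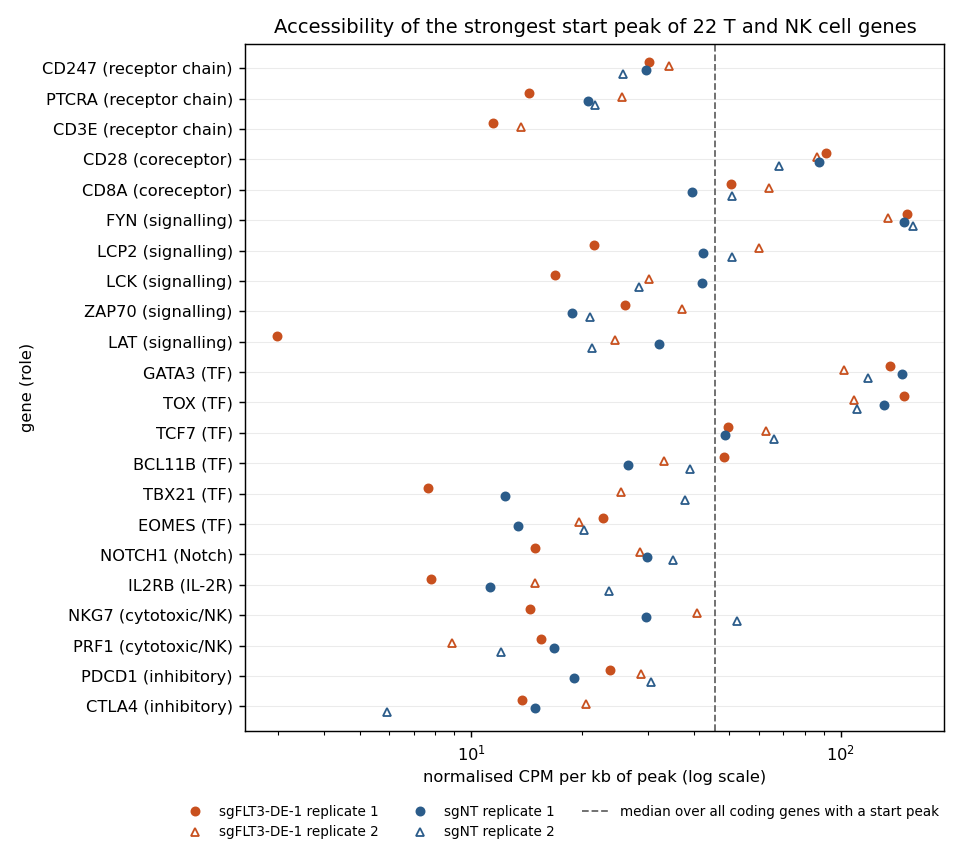
Accessibility of the strongest start peak of each of the 22 T and NK cell genes that have one, as normalised CPM per kb of peak on a log axis, by library and ordered by role. The dashed line is the median over all coding genes with a start peak, 45.8. FYN, GATA3, TOX, TCF7 and CD28 lie right of it in all 4 libraries, and the sgNT libraries of CD3E, at 0, are not drawn.

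The open starts of the T and NK genes lay mostly below the median of all coding start peaks. Their median was 28.3 CPM per kb for 22 genes, against 45.8 for 12622 coding genes with a start peak, and 6 of the 22 were above that median (FYN, GATA3, TOX, CD28, TCF7 and CD8A). Each gene counted by its strongest start peak, which for CD247, GATA3, TCF7 and CD8A was not one at the canonical start. Over the 160 peaks the median was 24.0 CPM per kb, against 20.1 over all consensus peaks. The summed level of a locus had a median of 49.9 CPM per 100 kb for the 36 genes and 49.2 for all coding genes. Peaks numbered 8.59 per 100 kb of locus in the median T and NK gene, against 6.45 in the median coding gene.

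The Notch receptors fell into different classes. NOTCH1 had counts of 29 and 78 at its start in sgFLT3-DE-1 cells, against 54 and 53 in sgNT cells, or 14.9 and 28.7 CPM per kb in sgFLT3-DE-1 cells, against 30.0 and 35.2 in sgNT cells. NOTCH3 had no start peak, and its strongest peak, in a coding exon, had 9.40 and 29.8 CPM per kb in sgFLT3-DE-1 cells, against 14.5 and 43.5 in sgNT cells. The interleukin-2 receptor chains were without a testable start. IL2RA, the alpha chain that activated T cells induce, had 6 intronic peaks, the strongest with 35.8 and 39.0 CPM per kb in sgFLT3-DE-1 cells, against 39.3 and 41.4 in sgNT cells. IL2RB, shared by the receptors for interleukins 2 and 15, had 3 and 8 counts at its start in sgFLT3-DE-1 cells, against 4 and 7 in sgNT cells, and none of its 6 peaks was testable.

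The cytotoxic and NK genes had few open starts. NKG7, a granule protein of killer cells, was the 1 gene of the 6 with a testable start peak, with 14.4 and 40.8 CPM per kb in sgFLT3-DE-1 cells, against 29.7 and 52.4 in sgNT cells. Its locus ranked high, at 433.8 CPM per 100 kb, but was 132.4 when peaks at the starts of its neighbours (CLDND2 and ETFB) were left out. PRF1, which encodes perforin, had 5 and 4 counts at its start in sgFLT3-DE-1 cells, against 5 and 3 in sgNT cells. GNLY, which encodes granulysin, was strongest over an exon, with 18.0 and 16.2 CPM per kb in sgFLT3-DE-1 cells, against 11.2 and 24.5 in sgNT cells. KLRD1, the CD94 chain of NK receptors, was strongest in an intron within its annotated gene body, 63.9 kb upstream of its canonical start. This peak had 13.1 and 28.2 CPM per kb in sgFLT3-DE-1 cells, against 23.7 and 28.4 in sgNT cells.

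GZMB, which encodes granzyme B, had no peak in its locus, with neighbouring peaks 25.3 kb and 6.63 kb from the gene. NCAM1, which encodes the NK marker CD56 and is also expressed in neurons, lay in 567.1 kb without a peak. Of the 760 coding loci at least as long as that of NCAM1, 8 had no peak, and their median was 24 peaks. That stretch held 2 CpG-rich coding starts, fewer than the 5 used to mark a stretch that could not be read. Both inhibitory receptors, which restrain activated T cells, had a start peak. PDCD1 (PD-1) had 23.7 and 28.7 CPM per kb at its start in sgFLT3-DE-1 cells, against 18.9 and 30.7 in sgNT cells, and CTLA4 had 13.7 and 20.5 in sgFLT3-DE-1 cells, against 14.9 and 5.93 in sgNT cells. The CTLA4 peak rested on 12 and 25 counts in sgFLT3-DE-1 cells, against 12 and 4 in sgNT cells.

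**Figure D3:**
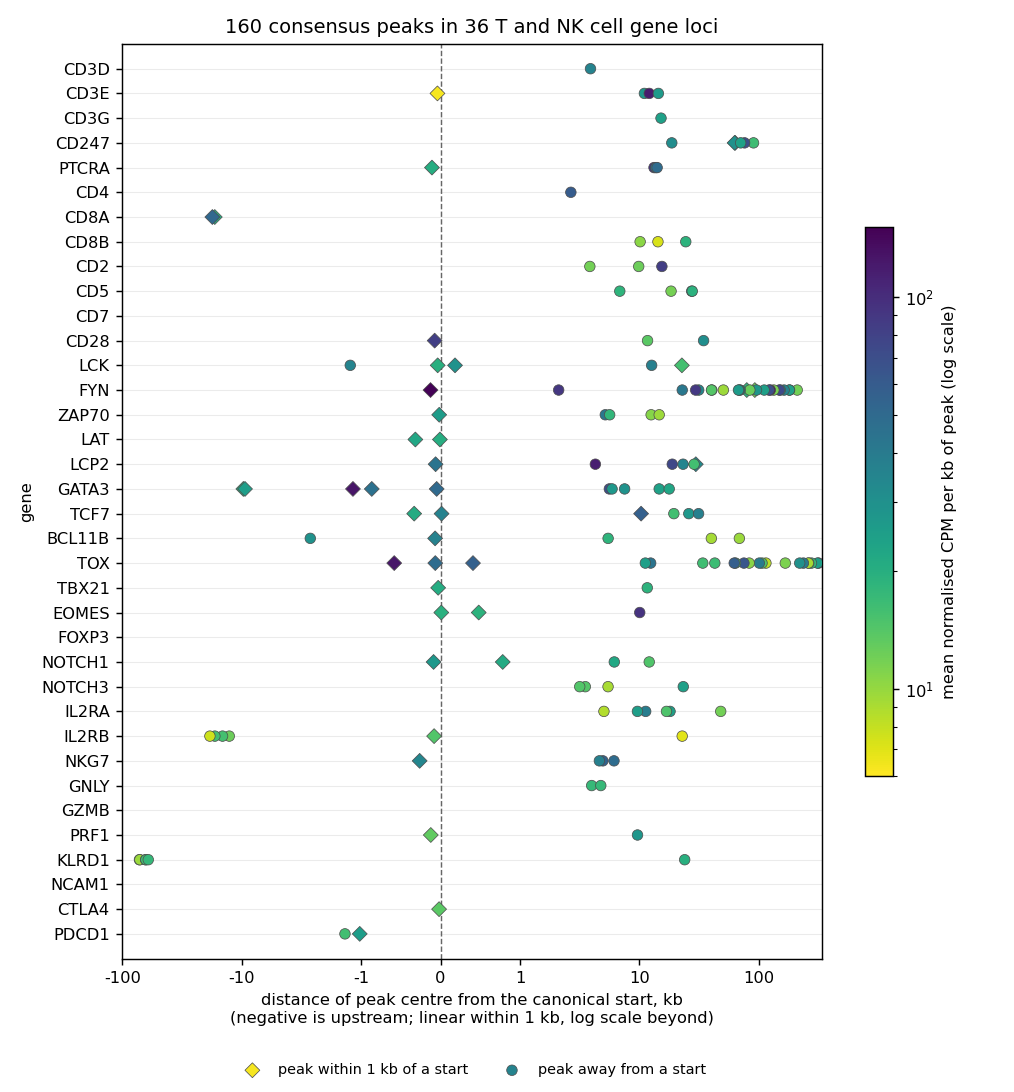
Distance in kb of the centre of each of the 160 consensus peaks from the canonical start of its gene (horizontal axis, linear within 1 kb and log beyond), by gene, coloured by mean normalised CPM per kb of peak. Diamonds are the 40 peaks within 1 kb of any coding transcript start of that gene and circles the 120 others. The dark points of CD3E, CD2 and EOMES lie beyond 10 kb, and CD7, FOXP3, GZMB and NCAM1 have no point.

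Most of the peaks in these loci lay away from starts. Of the 160 peaks, 40 lay within 1 kb of a start of their gene and 120 did not, and 95 lay wholly in introns, 19 beyond the gene's end and 11 upstream of the gene. The 7 peaks at starts of other coding genes, in the loci of CD3G, PTCRA and NKG7, are the neighbours' peaks as much as those of the named genes. The 5 peaks of highest accessibility per kb were the FYN intron (150.0), the FYN start (148), the GATA3 start (126), the TOX start (125) and the peak beyond CD3E (120.0). When the canonical start alone was counted, 17 of the 36 genes had a testable start peak and CD247 and CD8A left the group, against 56.1% of all coding genes.

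The CpG content of the starts, which the choice of genes did not use, was compared next. In the 300 bp around the canonical start (250 before and 50 after), the ratio of observed to expected CpG exceeded 0.6 in 13 of the 36 genes (36.1%), against 67.6% of all coding genes. For this the peak was sought at the canonical start alone, which leaves out the peaks of CD247 and CD8A at other starts. Among the genes with CpG-rich starts, 8 of 13 (61.5%) had a testable peak there, against 74.2% of all such genes. Among those with CpG-poor starts, 9 of 23 (39.1%) had one, against 21.1% of all such genes. The CpG-poor open starts were those of PTCRA, CD28, LCK, ZAP70, LAT, LCP2, NKG7, CTLA4 and PDCD1. The CpG-rich starts without a testable peak were those of CD8A, CD8B, NOTCH3, NCAM1 and FOXP3. These shares are given without a test, and the 36 genes were picked by name.

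The letters of short motifs were counted in the 200 bp centred on each peak, on both strands. The median consensus peak was 179 bp long, and at peaks shorter than 200 bp the window took in flanking DNA outside the peak. AGGAAG was present in 18 of the 40 peaks at starts (45%), against 25.9% of all peaks at coding starts, and CTTTGA in 8 (20%), against 6.79%. The GC-rich ETS letters CCGGAA were in 3 (7.5%), against 16.5%. TGTGGT was in 7 (17.5%), against 10.6%. Away from any coding start, neighbours' starts included, lay 113 peaks. TGTGGT was in 34 of them (30.1%), against 31.8% of all such peaks, CTTTGA in 23 (20.4%), against 16.2%, and AGGAAG in 41 (36.3%), against 34.6%. CCGGAA was in 6 (5.31%), against 2.87%, and AGATAA in 7 (6.19%), against 10.9%. HOX-type letters were rare, with TTTATGG in 1 and TGATTTA in 2 of the 113, against 2.91% and 3.42% of all peaks away from starts. The motifs can overlap each other, and base composition differs between these sets of peaks.

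No peak or locus of these genes passed the test between the guides. By edgeR's quasi-likelihood test none of the 106 testable peaks passed a false discovery rate of 0.05. Over all 82558 tested peaks 2 (0.00242%) passed, both higher with sgFLT3-DE-1, so no peak was called lower in this fit. The study's paper, which used other tools, reported decreased accessibility at the targeted FLT3 enhancer, a site outside the loci described here. By the same test 1 of the 106 had an unadjusted p under 0.05, against 1.90% of all tested peaks. Log2 fold changes of sgFLT3-DE-1 over sgNT ran from -0.85 to 1.24 with a median of -0.0027, 52 above 0 and 54 below, against a median of 0.01 over all tested peaks. The 2 libraries of sgFLT3-DE-1 were both above those of sgNT at 17 of the 106 peaks (16.0%), against 13.7% of all tested peaks, and both below at 12 (11.3%), against 13.8%. For summed loci, none of 32 passed and the background was 0% of 15702 tested loci (0 called; 149 with an unadjusted p under 0.05; DESeq2 and limma-voom also called 0). Log2 fold changes of the loci ran from -0.50 at LAT to 0.74 at CTLA4 with a median of 0.09, and 23 of 32 were above 0, against a median of 0.01 and 52.5% above 0 over all tested loci. The 4 genes without a peak could not be tested.

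The peaks of smallest p in each direction are given by their counts or normalised CPM per kb. An intronic LCP2 peak (chr5, from 169701503) had 13 and 21 counts in sgFLT3-DE-1 cells, against 5 and 5 in sgNT cells (log2 fold change 1.24 with SE 0.59, and an adjusted p of 1.0 in edgeR). An intronic FYN peak (chr6, from 112083359) had 19 and 22 counts in sgFLT3-DE-1 cells, against 10 and 4 in sgNT cells (1.06, SE 0.52), and the ZAP70 start had 21 and 42 in sgFLT3-DE-1 cells, against 14 and 13 in sgNT cells (0.69, SE 0.41). Lower with sgFLT3-DE-1 were a peak at the CLDND2 start in the NKG7 locus, with 43.5 and 47.0 CPM per kb against 64.9 and 67.1 in sgNT cells (-0.54, SE 0.27), and a peak at the CNPY3 start in the PTCRA locus, with 23.1 and 34.7 CPM per kb against 49.9 and 56.8 in sgNT cells (-0.85, SE 0.43). At the NOTCH1 start the log2 fold change was -0.55 with SE 0.31, or -0.19 without sgFLT3-DE-1 replicate 1 and -1.13 without sgFLT3-DE-1 replicate 2. Without sgFLT3-DE-1 replicate 2 the ZAP70 start was at 0.39 and the CNPY3 peak at -1.20. Without sgNT replicate 1 the FYN peak was at 1.70, and without sgNT replicate 2 at 0.64. In all of these 6 peaks the groups did not overlap in normalised CPM. They were picked by p between the guides, so this lack of overlap is no evidence of a difference. The LCP2 peak, with 5 counts in each sgNT library, passed the count filter only through the sgFLT3-DE-1 libraries. All 6 had adjusted p = 1.0 by edgeR, so the estimates are given as values only.

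**Figure D4:**
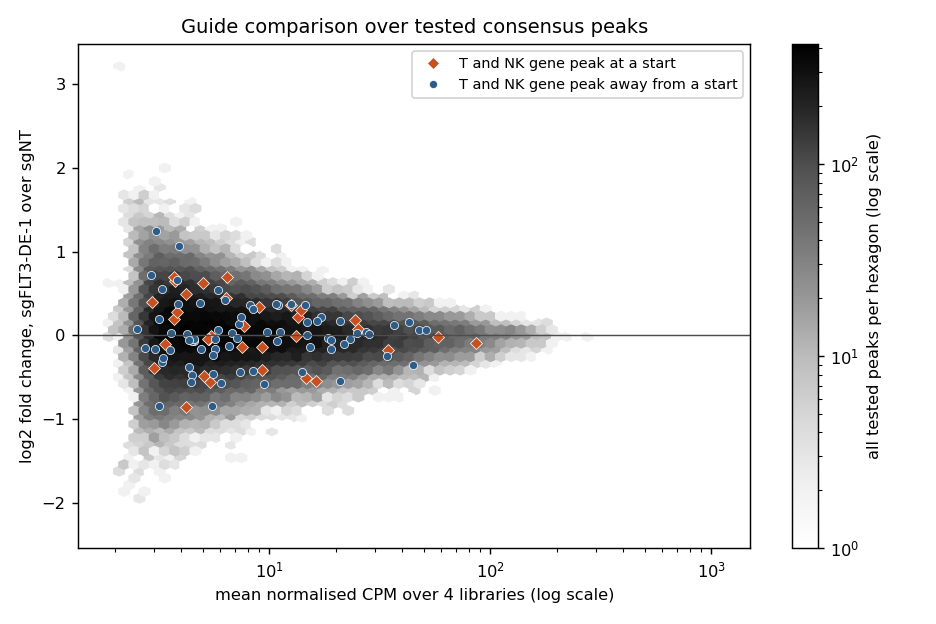
Log2 fold change of sgFLT3-DE-1 over sgNT (vertical axis) against mean normalised CPM over the 4 libraries (horizontal axis, log scale) for the 82558 tested peaks, shaded by number, with the 106 peaks of T and NK gene loci as coloured points. The points lie on both sides of 0 inside the spread of all peaks, between -0.85 and 1.24.

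The order of the libraries was counted by replicate number and by guide. At 22 of the 32 loci the libraries numbered 2 were both above those numbered 1 (68.8%), and at 3 both were below, where 43.2% and 22.4% of all tested loci were so ordered. The 3 loci with the opposite order were FYN, GATA3 and TOX. Ordered by guide, both sgFLT3-DE-1 libraries were above both sgNT libraries at 2 loci (6.25%), CD3D and EOMES, against 6.88% of all tested loci, and below at 1 (3.12%), NKG7, against 15.6%. The CD3D locus had 83.8 and 97.3 CPM per 100 kb in sgFLT3-DE-1 cells, against 68.7 and 73.4 in sgNT cells (log2 fold change 0.42 with SE 0.32, and an adjusted p of 1.0 in edgeR). The NKG7 locus had 270.0 and 436 CPM per 100 kb in sgFLT3-DE-1 cells, against 473 and 556 in sgNT cells (log2 fold change -0.47 with SE 0.23, and an adjusted p of 1.0 in edgeR), with sgFLT3-DE-1 replicate 1 the lowest. The locus of CD4 had 42.2 and 71.5 CPM per 100 kb in sgFLT3-DE-1 cells, against 37.3 and 76.5 in sgNT cells, and that of NOTCH3 had 10.7 and 26.4 in sgFLT3-DE-1 cells, against 12.2 and 33.9 in sgNT cells, both split by replicate number.

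The ratio of replicate 1 to replicate 2 differed with GC content, more within sgFLT3-DE-1 than within sgNT. At the 33 testable peaks of these loci with a GC content over 60%, sgFLT3-DE-1 replicate 1 had a median of 0.611 times the normalised CPM of sgFLT3-DE-1 replicate 2, and sgNT replicate 1 had 0.918 times that of sgNT replicate 2. At the 73 other peaks the ratios were 0.882 in sgFLT3-DE-1 cells, against 0.899 in sgNT cells. Over all tested peaks the ratio within sgFLT3-DE-1 was 0.862 above 60% GC and 1.04 below, and within sgNT it was 0.963 above and 1.02 below. Which of the libraries moved was not determined. The starts of LAT (74.4% GC), NOTCH1 (76.7% GC) and TBX21 (68.3% GC), low in sgFLT3-DE-1 replicate 1, are among the GC-rich peaks, and the part of GC content in their values was not tested. Log2 fold changes between the guides were above 0 at 10 of the 33 GC-rich peaks (30.3%, median -0.16), against 36.4% of all GC-rich tested peaks (median -0.098), and at 42 of the 73 others (57.5%, median 0.04), against 56.2% of all others (median 0.05), so the split was near that of all peaks. With a correction for GC content the NOTCH1 start was at -0.40.

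**Figure D5:**
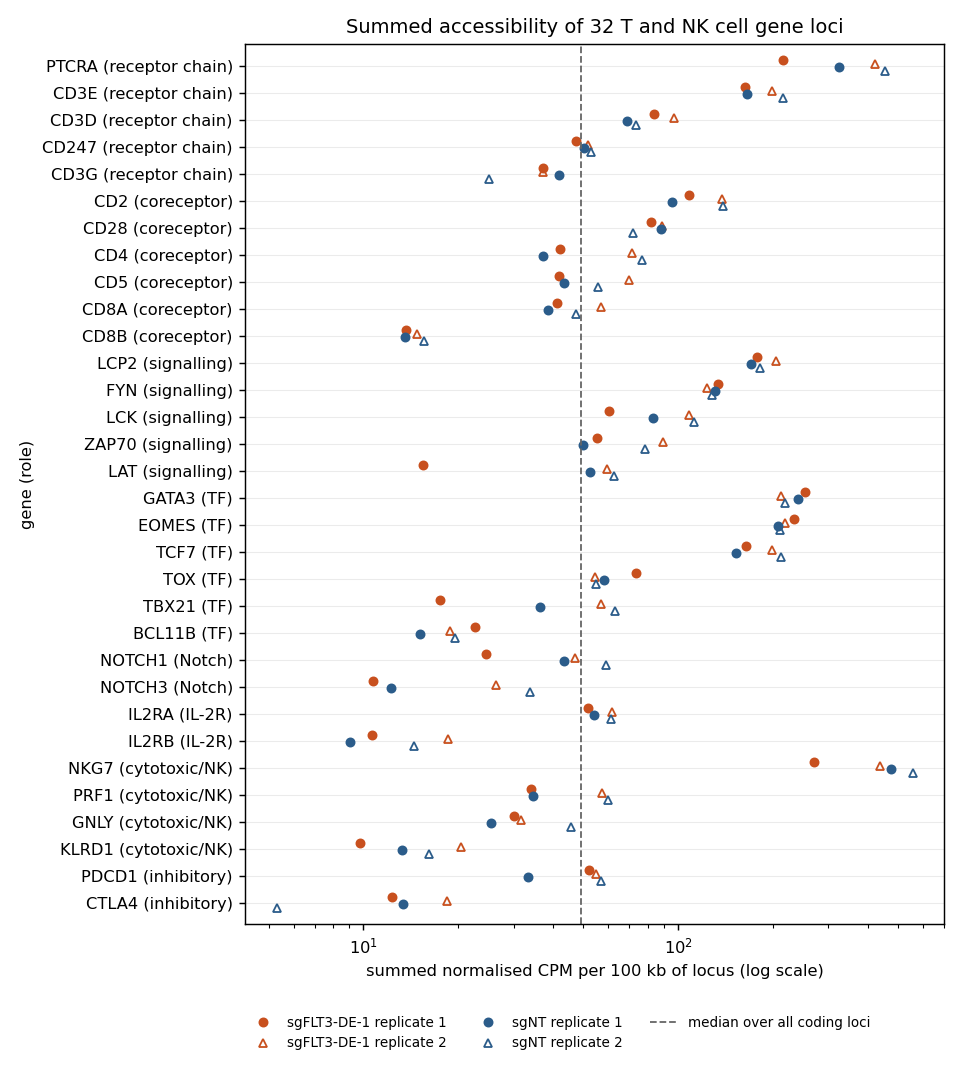
Summed normalised CPM per 100 kb of locus (horizontal axis, log scale) of the 32 T and NK cell gene loci with a peak, by library and ordered by role. The dashed line is the median over all coding loci, 49.2. Both triangles (replicate 2) lie right of both circles (replicate 1) at 22 of the 32 loci, and the sums of PTCRA, NKG7 and CD3G include peaks at the starts of neighbouring genes.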

How the data were processed

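ATAC-seq was made from SEM cells with sgFLT3-DE-1 or sgNT, 2 libraries each, and the labels' treatment and title fields gave the groups. The values used are the deposited raw counts per consensus peak, on hg19 (GRCh37). The labels' protocol names cutadapt and Bowtie2, while the submitters' processing notes name BWA, MACS2 2.1.1.20160309, Trim Galore 0.4.4, bedtools 2.24.0 and SAMtools 1.2. A transposase shift was not given in the sources used here. The compared libraries are also those in which peaks were called.

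Peaks were joined to gene bodies with 5 kb on either side and to protein-coding transcript starts within 1 kb, in GENCODE 44 lifted to GRCh37. The test was edgeR 4.0.16 in R 4.3.3 (filterByExpr with a minimum count of 10 and total of 15, TMM factors, the quasi-likelihood test with guide as the only term, Benjamini-Hochberg over all tested peaks or all tested loci, threshold 0.05). Normalised CPM used TMM-scaled totals. The fit was tested on simulated data. Sequences were read from the GRCh37 genome. Class counts, levels and motif shares have no test.

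The labels do not say whether libraries came from separate cultures, so p-values measure only the spread between these libraries. The 36 genes, the lists beside them and the tests were chosen with earlier results of these data known. Named peaks were the start peak of every gene, the strongest peak of genes without one, the 5 strongest, and the 3 of smallest p in each direction. Alternatives were other scalings, no filter, DESeq2 1.42.0, limma-voom 3.58.1, the replicate number as a block, leaving out each library, other windows and count minimums. A GC correction, the canonical start alone and leaving out peak-free stretches were added after the data were seen. Genes of the other lists were named as examples, and some of these examples and a sequence are not reported here.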

Additional observations from a re-analysis of the deposited data

How the results depend on the processing

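No peak or locus of the 36 genes passed under any of the settings run, and no estimate of the 6 peaks named by p changed direction. Over all peaks, where 2 passed in the edgeR fit, 1 passed with DESeq2, 1 with total counts only, 1 with the GC correction, 5 without the filter, and leaving out a library gave 0 to 9. Over all loci, where 0 passed, leaving out a library gave 0 to 2. The labels give both guides the replicate numbers 1 and 2 but not what a number shares, and deviations of same-numbered libraries correlated at 0.397. With the replicate block 74 peaks and 93 loci passed, 20 peaks with the block and the GC correction together, and 10 of the 106 peaks and 4 of the 32 loci of the T and NK genes had an unadjusted p under 0.05 with the block, against 8.25% of all peaks and 12.6% of all loci, the smallest adjusted p being 0.349 for peaks and 0.0547 for loci. Without sgFLT3-DE-1 replicate 2, 16 of the 32 loci were above 0 (46.3% of all loci), against 23 with all libraries.

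The class counts depended on the definition. With gene bodies and 20 kb on either side, 2 genes (FOXP3 and NCAM1) had no peak, and with gene bodies alone 6. With a mean count of at least 50 in the peak, 6 genes had a testable start peak (CD28, FYN, GATA3, TCF7, TOX and NOTCH1), against 36.4% of all coding genes. Without loci in peak-free stretches, 19 of 33 genes had one, against 61.7% of coding genes, and 3 had no peak, against 13.8%. Other windows and minimums left 17 to 19. Absence of a peak means no call at 2683477 to 4831164 counts per library, not closed chromatin.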

Other observations

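Among 50 further T and NK genes, 21 had a testable start peak, 3 a thin one, 18 peaks away from the start only and 8 no peak. Among the strongest by normalised CPM were IKZF2, a regulatory T cell factor, and ID2, a factor required for NK cells. IKZF2 had 126 and 94.6 CPM per kb at its start in sgFLT3-DE-1 cells, against 127 and 96.0 in sgNT cells. ID2 had 113 and 121 CPM per kb in sgFLT3-DE-1 cells, against 170.0 and 154 in sgNT cells. Of the 14 myeloid genes, CEBPA, CEBPE, SPI1, ITGAM and MPO were the 5 with a testable start peak, at 74.4, 56.1, 51.8, 36.4 and 16.2 CPM per kb over the 4 libraries. None of 10 erythroid genes, which include GATA1, TAL1 and KLF1, had a start peak, thin ones included. No peak at all lay in the loci of 5 of them, and genes in peak-free stretches had not been taken out. Of the 18 genes of non-blood tissues, TTR and COL1A1 had a testable one, at 49.1 and 17.9 CPM per kb.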
